A study of Mus musculus with 6 samples.

Results

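The 10 genes described here encode the enzymes that lead from fructose-6-phosphate to UDP-GlcNAc and on to CMP-sialic acid, with an epimerase and a lyase that run parts of the route backwards. They were chosen by symbol, as Gfpt1, Gnpnat1, Pgm3, Uap1, Gne, Nans, Nanp, Cmas, Renbp and Npl, from the 48699 genes of the deposited liver table, and all 10 were found, each in 1 row. Of these, 8 averaged 0.5 FPKM or more over the 6 libraries (fragments for each kilobase of transcript and each 1e6 mapped fragments) and were tested among 11810 genes. Nanp and Npl did not. The livers came from adult male mice of the strain labelled c57bl/6, 10 to 12 weeks old, fasted overnight for 8 to 10 hours and, going by the column names, on chow. In 3 of the mice, hepatocytes lacked both Fxr (gene symbol Nr1h4), the bile acid receptor, and Shp (gene symbol Nr0b2), an orphan receptor that represses transcription; these carry the label hepatocyte-specific fxr-/- shp-/- and are called double knockouts. The other 3 mice carried floxed alleles of the same genes, Fxr fl/fl Shp fl/fl, and are the controls. The sources used here do not give the driver of the recombinase, and the RNA is from whole liver, so cells other than hepatocytes kept both genes.

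The hexosamine pathway joins glucose, glutamine, acetyl-CoA and UTP into UDP-GlcNAc, the donor for N-glycan cores and branches and for O-GlcNAc on proteins inside the cell. Gfpt1 makes glucosamine-6-phosphate and is the step that sets the pathway's rate, under feedback by UDP-GlcNAc. In the liver, which secretes most plasma glycoproteins, Gne turns UDP-GlcNAc into phosphorylated N-acetylmannosamine, and the end product of that route, CMP-sialic acid, caps the glycans of those proteins and feeds back on Gne itself.

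Both deleted genes were lower in all 3 double knockouts, as the labels state. Nr0b2 measured 0.216, 0.0734 and 0.293 FPKM in double knockouts and 14.7, 17.6 and 18.7 FPKM in controls (limma adjusted p = 0.000277). Nr1h4 measured 21.1, 15.5 and 22.0 FPKM in double knockouts and 59.8, 71.8 and 68.0 FPKM in controls (limma adjusted p = 0.0172). Judged from the smallest steps of their values, the libraries held 13.2 to 14.1 times 1e6 fragments. Control replicate 3 stood apart from the other controls over all tested genes. It correlated at 0.952 and 0.955 with them, and they correlated at 0.983 with each other (Pearson, log2 values, across genes, which are not independent replicates). Its correlation with double knockout replicate 3 was 0.966. Of 15 immediate-early genes, a list chosen with earlier results of these data known, 14 were highest in control replicate 3. Their summed level was 873.9 FPKM in it, 208.7 FPKM in double knockout replicate 3 and 65.5 to 85.7 FPKM in the remaining libraries. The differences of Gfpt1, Gnpnat1, Gne, Nans and Cmas are therefore also given without control replicate 3. Those of paralogs, ratios and neighbouring lists are given only with that library.

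The upstream sequences of the 3 genes whose groups did not overlap, Gfpt1, Gne and Cmas, show how unlike their starts are. They are 250 bases long, end at the base before the transcription start, read 5′ to 3′ on the gene's strand, and come from RefSeq on GRCm38.p6. Capitals mark the motif CCACG, the motif CCAAT or the motif GGGCGG, on either strand; neighbouring matches may overlap.
Gfpt1, chr6:87042596-87042845, plus strand: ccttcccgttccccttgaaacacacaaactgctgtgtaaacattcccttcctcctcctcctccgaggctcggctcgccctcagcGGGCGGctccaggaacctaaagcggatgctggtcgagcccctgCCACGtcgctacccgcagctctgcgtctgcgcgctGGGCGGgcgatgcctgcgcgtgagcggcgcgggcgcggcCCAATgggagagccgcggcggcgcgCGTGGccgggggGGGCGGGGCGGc
Gne, outer start, chr4:44084178-44084427, minus strand: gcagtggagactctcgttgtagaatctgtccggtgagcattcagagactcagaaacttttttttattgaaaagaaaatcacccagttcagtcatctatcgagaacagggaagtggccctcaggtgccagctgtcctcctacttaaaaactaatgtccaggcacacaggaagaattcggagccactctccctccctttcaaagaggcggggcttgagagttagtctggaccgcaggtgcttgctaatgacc
Gne, inner start, chr4:44072718-44072967, minus strand: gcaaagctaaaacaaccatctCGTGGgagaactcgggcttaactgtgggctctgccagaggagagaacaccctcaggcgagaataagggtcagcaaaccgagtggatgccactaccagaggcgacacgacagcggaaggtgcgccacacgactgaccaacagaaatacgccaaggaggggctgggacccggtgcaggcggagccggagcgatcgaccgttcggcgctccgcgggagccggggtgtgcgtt
Cmas, chr6:142756436-142756685, plus strand: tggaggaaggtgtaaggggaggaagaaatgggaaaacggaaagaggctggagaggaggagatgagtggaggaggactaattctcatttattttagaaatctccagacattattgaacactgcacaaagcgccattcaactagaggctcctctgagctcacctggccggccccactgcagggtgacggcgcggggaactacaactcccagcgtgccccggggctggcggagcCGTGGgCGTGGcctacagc

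The Gfpt1 window was 72.0% G and C with 32 CpG, against a median of 52.4% and 6 CpG over 32851 upstream windows of the table. It held 4 matches to GGGCGG, the GC box, 1 to CCAAT and 2 to CCACG. With CCAAT upstream of it on the same strand, CCACG makes up the endoplasmic reticulum stress element. Here the CCACG on the gene's strand lay upstream of CCAAT, and the match downstream of CCAAT was on the other strand. The matches in this window therefore did not form that element. The outer Gne window was 48.8% G and C with 6 CpG and held none of these motifs. The inner Gne window, 62.0% G and C with 22 CpG, held 1 CCACG and no GC box. Cmas, at 56.8% with 11 CpG, held 2 CCACG matches close together just before its start. In all, 8 windows of 7 of the 10 genes were matched. CCACG was in 5 of the 8 and in 28.3% of all windows, CCAAT in 3 of the 8 and in 33.8%, and GGGCGG in 4 of the 8 and in 32.7%. GGGCGG was in the windows of Gfpt1, Pgm3, Uap1 and Renbp, and not in those of Gne, Cmas and Npl. GTCANTGAC, the core of the inverted repeat that FXR binds, was in 0 of the 8 windows and in 0.32% of all, and TGATGCAA, of the ATF4 type, in 0 of the 8 and in 0.791%. The 8 include both Gne windows, and those of Pgm3 and Uap1 held 28 and 22 CpG. The shares of all windows were not matched for CpG, so no enrichment is read from these counts. Matches are letters only, and their absence from 250 bases says nothing of sites elsewhere.

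No gene of the route passed the test, with 0 of 8 higher and 0 of 8 lower in double knockouts (limma on log2(FPKM + 1), Benjamini-Hochberg adjusted p under 0.05 over all tested genes). Of all tested genes 0.313% passed, 0.169% higher and 0.144% lower. At an unadjusted limma p under 0.05, 3 of the 8 tested enzymes stood, against 14.9% of all tested genes. The same 3, Gfpt1, Gne and Cmas, had double knockout and control values that did not overlap, as did 22.9% of all tested genes (11.3% higher and 11.6% lower). Gfpt1, the entry to UDP-GlcNAc, was on the higher side in double knockouts. Gne and Cmas, which start and end the synthesis of CMP-sialic acid, were on the lower side. The direction of Gfpt1, Gne and Cmas was the same in all 18 alternative settings tried. Since their groups did not overlap, most of these settings could not have turned it. Only the scalings and the removal of the length and GC trend could. Fewer hepatocytes and less RNA per hepatocyte cannot be told apart in whole liver.

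**Figure D1:**
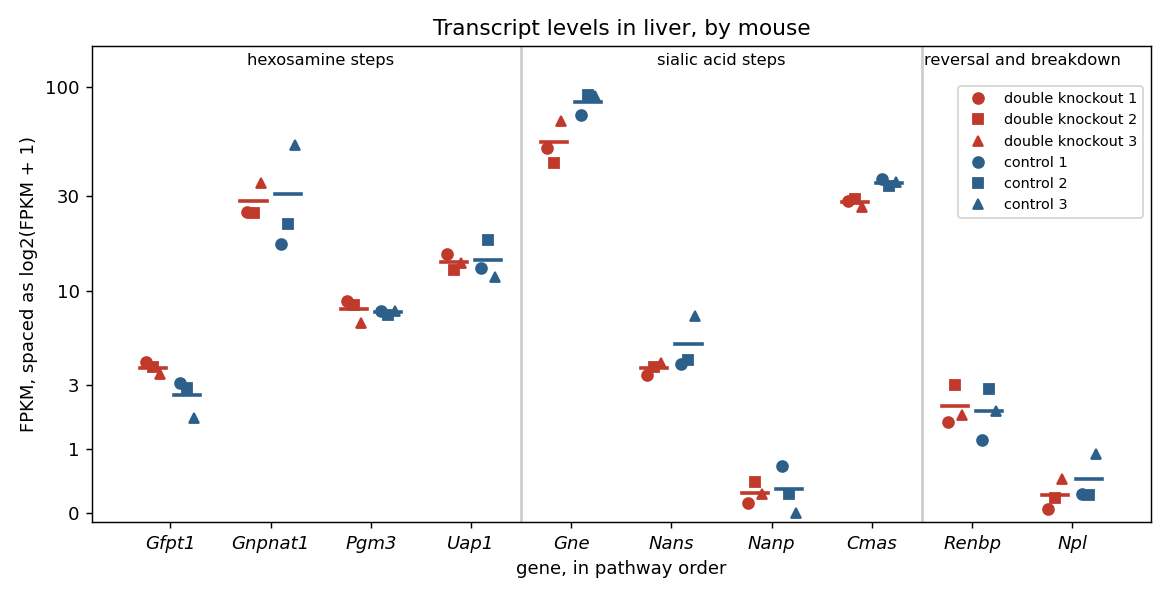
FPKM of the 10 enzymes in each mouse, in pathway order, on an axis spaced as log2(FPKM + 1). Symbols are single livers (circle, square and triangle for replicates 1, 2 and 3), double knockouts in red on the left and controls in blue on the right of each gene, and bars are group means; the groups separate for Gfpt1, Gne and Cmas, and control replicate 3 lies far above its group for Gnpnat1 and Nans.

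Gne was the most abundant transcript of the route in both groups and made up 38.1% of the summed mean FPKM of the 10 enzymes in double knockouts and 46.3% in controls. FPKM is a level per transcript length, so levels of different genes can be set side by side. In double knockouts the order was Gne, Gnpnat1, Cmas, Uap1, Pgm3, Gfpt1, Nans, Renbp, Nanp and Npl. Of these neighbours, Gnpnat1 and Cmas, Gfpt1 and Nans, and Nanp and Npl had overlapping libraries. In controls the order was Gne, Cmas, Gnpnat1, Uap1, Pgm3, Nans, Gfpt1, Renbp, Npl and Nanp. There, Cmas with Gnpnat1, Gnpnat1 with Uap1, Gfpt1 with Renbp, and Npl with Nanp overlapped. Nans was above Gfpt1 in every control, while their ranges met in double knockouts.

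Gfpt1 (ENSMUSG00000029992.14, chromosome 6, 87042846 to 87092197, plus strand, GRCm38) encodes the glutamine-fructose-6-phosphate transaminase that commits sugar to hexosamines. It measured 4.10, 3.85 and 3.51 FPKM in double knockouts and 3.08, 2.87 and 1.78 FPKM in controls. Every double knockout was above every control, and control replicate 3 was the lowest of the 6. The means were 3.82 ± 0.297 FPKM in double knockouts and 2.57 ± 0.695 FPKM in controls (SD, n = 3 each), a ratio of 1.48. On the log2(FPKM + 1) scale the difference was 0.45 (SE 0.19, 95% interval 0.01 to 0.89, limma adjusted p = 0.326). It was 0.28 without control replicate 3 (limma adjusted p = 0.271). The authors' deposited table gave an unadjusted p of 0.02545 and a q of 0.162 for Gfpt1. Of the 11844 genes with a test in the authors' deposited table, 4.58% had a q under 0.05. Of the 10 enzymes 0 did, and Nanp and Npl had no test there. Its paralog Gfpt2, which catalyses the same reaction in other tissues, was at 0.119, 0.286 and 0.0476 FPKM in double knockouts and at 0.0759, 0.0236 and 0 FPKM in controls, so Gfpt1 was the main transaminase transcript in each liver.

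Gnpnat1 (ENSMUSG00000037722.7, chromosome 14, 45376334 to 45404913, minus strand) encodes the acetyltransferase that adds the acetyl group of acetyl-CoA to glucosamine-6-phosphate. It measured 25.1, 24.8 and 34.8 FPKM in double knockouts and 17.4, 21.9 and 53.1 FPKM in controls. The group means were close, 28.2 ± 5.67 FPKM in double knockouts and 30.8 ± 19.4 FPKM in controls (SD, n = 3 each), because control replicate 3 held more than the other 5 livers. The log2 difference was 0.03 (SE 0.39, 95% interval -0.87 to 0.93, limma adjusted p = 0.983). Without control replicate 3 it was 0.49 (limma adjusted p = 0.2). Without control replicate 1, control replicate 2 or double knockout replicate 3 it was -0.29, -0.13 and -0.13, so its direction depended on single livers. Its locus overlaps Styx on the opposite strand.

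Pgm3 (ENSMUSG00000056131.13, chromosome 9, 86554377 to 86571842, minus strand) encodes the mutase that moves the phosphate on N-acetylglucosamine. It was the steadiest of the route in controls, with 8.87, 8.54 and 6.84 FPKM in double knockouts and 7.95, 7.54 and 7.94 FPKM in controls. The double knockout values fell on both sides of the controls (log2 difference 0.04, SE 0.15, 95% interval -0.31 to 0.38, limma adjusted p = 0.925). Uap1 (ENSMUSG00000026670.15, chromosome 1, 170141938 to 170174957, minus strand) encodes the pyrophosphorylase that joins the sugar to UTP. It measured 15.5, 12.95 and 14.1 FPKM in double knockouts and 13.2, 18.1 and 11.9 FPKM in controls, with the groups overlapping. The difference of -0.01 (SE 0.18, 95% interval -0.43 to 0.42, limma adjusted p = 0.995) had no settled sign: it was positive under each of the 3 scalings and with the length and GC trend removed. The deposited span of Pgm3 also takes in Dop1a on the opposite strand. Uap1l1, a relative of Uap1, was at 4.27, 4.78 and 2.85 FPKM in double knockouts and at 2.47, 1.72 and 6.82 FPKM in controls.

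**Figure D2:**
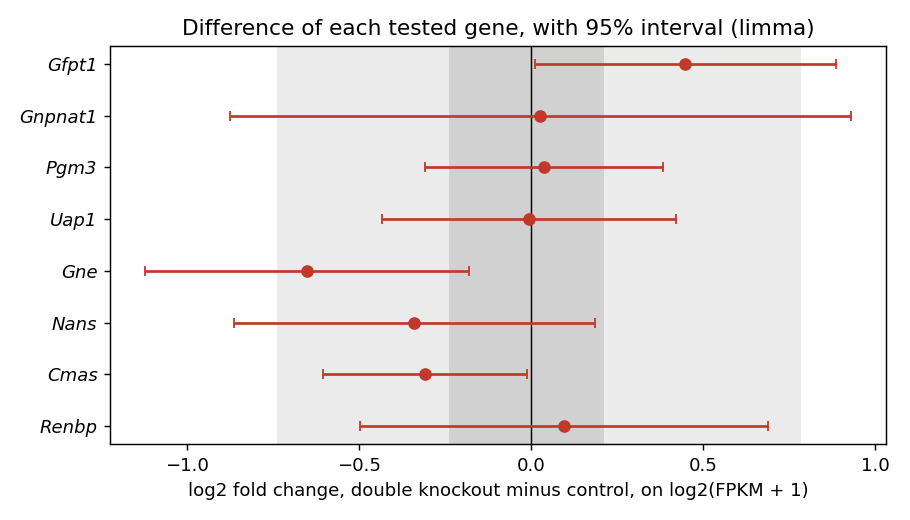
Log2 fold change of the 8 tested enzymes, double knockout minus control on the log2(FPKM + 1) scale, with limma's 95% interval as bars. The dark band holds the middle 50% and the light band the middle 95% of all 11810 tested genes (-0.74 to 0.78); the intervals of Gfpt1, Gne and Cmas leave out 0 before adjustment, and all 8 points lie inside the light band.

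Gne (ENSMUSG00000028479.18, chromosome 4, 44034075 to 44084177, minus strand) encodes the enzyme with both an epimerase and a kinase activity that opens sialic acid synthesis. It measured 51.4, 43.3 and 68.7 FPKM in double knockouts and 73.2, 91.1 and 90.4 FPKM in controls. The highest double knockout lay just under the lowest control, so the gap between the groups was narrow beside the spread within them. The mean was 54.5 ± 12.98 FPKM in double knockouts and 84.9 ± 10.2 FPKM in controls (SD, n = 3 each), a ratio of 0.642. This was the largest difference among the 8 tested enzymes (log2 difference -0.65, SE 0.20, 95% interval -1.12 to -0.18). It ranked 699 by p among all tested genes, with a limma adjusted p of 0.227. Without control replicate 3 the difference was -0.60 (limma adjusted p = 0.178). Over the 18 alternatives the difference stayed between -0.83 and -0.43 and the adjusted p between 0.0696 and 0.558. The lowest of these came with estimated library weights. The authors' deposited table gave a p of 0.024 and a q of 0.157 for Gne. The RefSeq starts printed above lie on 1 gene row, so the FPKM does not tell transcripts of the outer start from those of the inner one.

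Nans (ENSMUSG00000028334.10, chromosome 4, 46489248 to 46503632, plus strand), the sialic acid synthase, condenses phosphorylated N-acetylmannosamine with phosphoenolpyruvate. It measured 3.44, 3.87 and 4.07 FPKM in double knockouts and 3.99, 4.25 and 7.46 FPKM in controls. The groups overlapped, and control replicate 3 was again the highest. The difference was -0.34 (SE 0.22, 95% interval -0.86 to 0.19, limma adjusted p = 0.505) and -0.10 without control replicate 3. Nanp (ENSMUSG00000053916.4, chromosome 2, 151029685 to 151039398, minus strand), the phosphatase of the next step, was at 0.111, 0.395 and 0.225 FPKM in double knockouts and at 0.650, 0.222 and 0 FPKM in controls. These levels correspond to about 0 to 12 fragments per library on its longest transcript, and a difference was not detectable at this depth. The deposited span of Nanp is 104880 bases against 9714 in GENCODE M21 and takes in Ninl on the same strand, and that of Nans, 112955 bases against 14385, takes in Trim14 and Coro2a, so how overlapping fragments were assigned bears on both values.

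Cmas (ENSMUSG00000030282.14, chromosome 6, 142756686 to 142775714, plus strand) encodes the synthetase that charges sialic acid with CMP in the nucleus. It measured 28.4, 29.0 and 26.5 FPKM in double knockouts and 36.3, 33.4 and 34.9 FPKM in controls. All double knockouts were below all controls, with a narrow spread in both groups. The means were 28.0 ± 1.29 FPKM in double knockouts and 34.8 ± 1.47 FPKM in controls (SD, n = 3 each), a ratio of 0.803. The difference was -0.31 (SE 0.13, 95% interval -0.60 to -0.01, limma adjusted p = 0.323). It did not rest on control replicate 3, without which it was also -0.31 (limma adjusted p = 0.196). Quantile normalization gave -0.20 (limma adjusted p = 0.551). The summed FPKM of a library was 610618 to 697877 in double knockouts and 702759 to 841745 in controls. Rescaling each library to a common sum brought the Cmas difference to -0.09 (limma adjusted p = 0.785). In that setting the median of all tested genes moved up by 0.181. Relative to that median Cmas was then at -0.27, Gne at -0.61 and Gfpt1 at 0.49.

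Of the enzymes that run the route backwards, Renbp (ENSMUSG00000031387.14, chromosome X, 73922121 to 73930850, minus strand), which converts N-acetylmannosamine to N-acetylglucosamine, measured 1.67, 3.01 and 1.88 FPKM in double knockouts and 1.20, 2.81 and 2.00 FPKM in controls. The groups overlapped throughout (log2 difference 0.10, SE 0.25, 95% interval -0.50 to 0.69, limma adjusted p = 0.885). Npl (ENSMUSG00000042684.8, chromosome 1, 153503015 to 153550045, minus strand), the lyase that splits free sialic acid, was at 0.0430, 0.174 and 0.434 FPKM in double knockouts and at 0.228, 0.214 and 0.883 FPKM in controls. That is about 1 to 21 fragments per library on its longest transcript. Without the filter on low values, Npl had a log2 difference of -0.23 and Nanp of -0.03, neither past the threshold (limma adjusted p = 0.692 and 0.971). All 8 macrophage and Kupffer cell markers looked at were detected and positive, none past the threshold, with a summed level of 93.8 to 238.9 FPKM in double knockouts and 51.6 to 141.6 FPKM in controls. Double knockout replicate 2 held the most macrophage marker RNA and also the highest Renbp level, 3.01 FPKM, while the lowest sum, in control replicate 2, went with 2.81 FPKM of Renbp. The part of these cells in the levels of Renbp and Npl was not tested. The 5 hepatocyte markers summed to 28640 to 48650 FPKM in double knockouts and 54430 to 65530 FPKM in controls, with 0 of 5 called. Alb carried that sum, at 17009 to 34609 FPKM in double knockouts and 37008 to 43645 FPKM in controls. Apoa1, Ttr, Serpina1a and Cps1 overlapped. All 5 log2 differences were negative, from -0.77 for Alb to -0.01 for Cps1. The 5 cholangiocyte markers summed to 59.1 to 63.7 FPKM in double knockouts and 33.7 to 44.2 FPKM in controls, with 0 called. Spp1 carried that sum, at 55.2 to 60.9 FPKM in double knockouts and 31.1 to 42.6 FPKM in controls; Krt19 and Sox9 overlapped at low levels, Epcam did not overlap (0.862 to 1.29 FPKM in double knockouts, 0.477 to 0.760 FPKM in controls), and Krt7 was too low to be tested. Among the other markers looked at, those of sinusoidal endothelial cells had 2 positive and 3 negative log2 differences, and those of stellate cells 3 and 2. The 3 tested markers of lymphocytes and neutrophils were positive and the 2 of red cells negative, with 0 called in each of these sets. The part of all these markers' cells in the lower Gne and Cmas values was not tested either.

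Within 1 library a ratio of transcript levels does not move with the library's scaling. The level of Gne was 12.5, 11.3 and 19.6 times that of Gfpt1 in double knockouts and 23.8, 31.8 and 50.8 times in controls. The groups did not overlap, and control replicate 3 gave the highest ratio. The mean ratio was 14.5 ± 4.49 in double knockouts and 35.5 ± 13.8 in controls (SD, n = 3 each). The mean log2 difference was -1.26. Since Gfpt1 was higher and Gne lower in every double knockout than in every control, this ratio could not overlap, and it is given as a description with no test. The other 7 ratios were tested with a two-sided exact permutation test, whose smallest p with 3 against 3 is 0.1, and adjusted over the 7 by Benjamini-Hochberg. Uap1 over Gne, the ratio across the branch point from UDP-GlcNAc to sialic acid, was 0.301, 0.299 and 0.205 in double knockouts and 0.180, 0.199 and 0.131 in controls. It too did not overlap, with little room between the lowest double knockout and the highest control (exact permutation p = 0.1, adjusted 0.7). Its mean log2 difference was 0.65. On the log2(FPKM + 1) scale Gne alone differed by -0.65 and Uap1 by -0.01, so this ratio mostly restates Gne. Gne over Cmas, the first and last sialic acid steps, overlapped at 1.81, 1.49 and 2.59 in double knockouts and 2.02, 2.73 and 2.59 in controls (exact permutation p = 0.2, adjusted 0.7). The other 5 ratios, of neighbouring steps, overlapped.

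**Figure D3:**
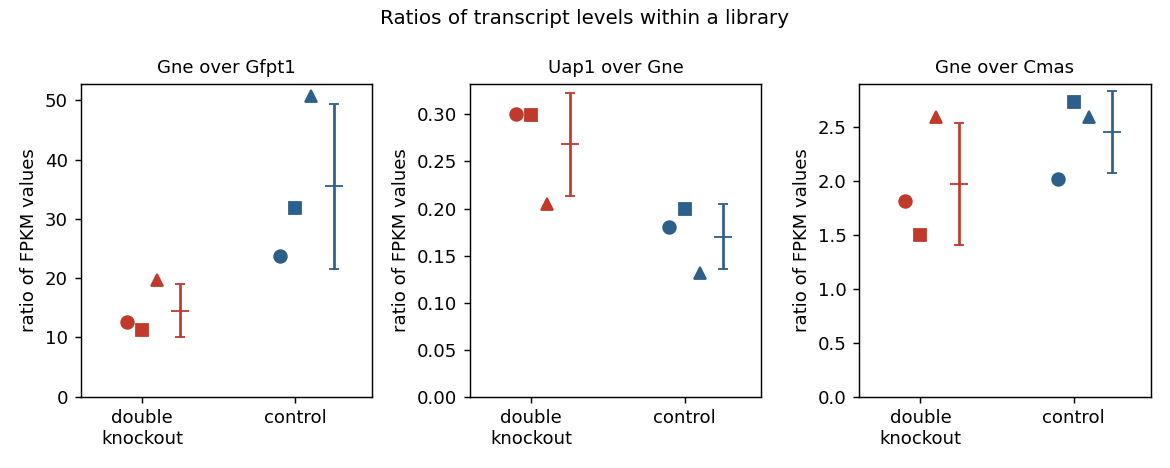
Ratios of FPKM values within a library, one panel for each pair of genes, double knockouts in red on the left and controls in blue on the right. Symbols are single livers and the bar beside them is the mean ± SD; Gne over Gfpt1 lies between 11.3 and 19.6 in double knockouts and between 23.8 and 50.8 in controls, while Gne over Cmas overlaps.

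Fold changes in these livers moved with transcript length, which bears on how the values of Gfpt1 and Gne read. Over the 11791 tested genes with an annotated length, in 5 equal groups by their longest transcript, the median log2 fold change was -0.23 in the shortest group and 0.18 in the longest. The share of genes with a positive fold change was 28% in the shortest group and 75.7% in the longest. Both Gfpt1, with a longest transcript of 6238 bases, and Gne, with 5384 bases, belong to the longest group, whose median Gfpt1 shares in sign and Gne does not. With the length and GC trend removed from each library, Gfpt1 stood at 0.31 (limma adjusted p = 0.518), Gne at -0.79 (0.207) and Cmas at -0.32 (0.342). Control replicate 3 had the steepest trend, with a median deviation of 0.27 in the shortest group and -0.20 in the longest. Whether the trend comes from the libraries or the livers was not tested.

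**Figure D4:**
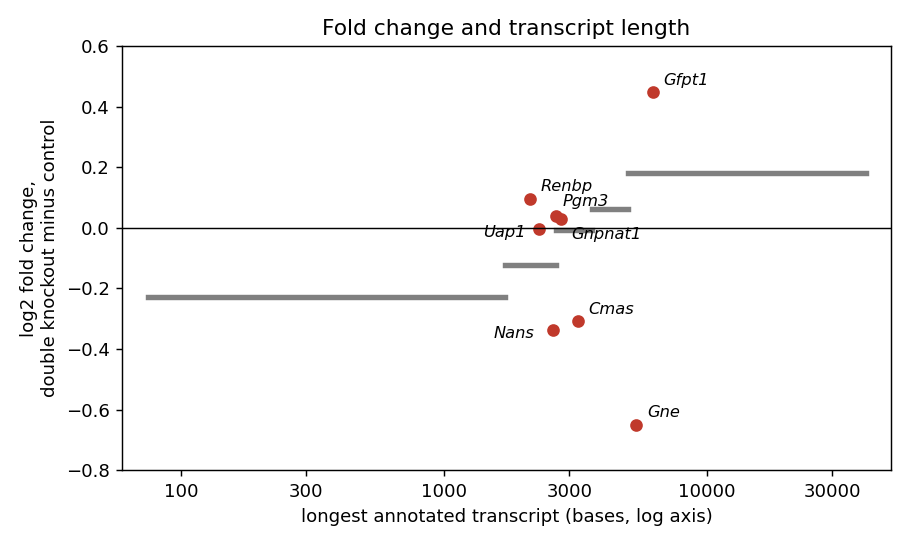
Log2 fold change (double knockout minus control, log2(FPKM + 1) scale) of the 8 tested enzymes against the length of their longest annotated transcript in bases, on a log axis. Grey bars are the medians of all tested genes in 5 equal groups by length, from -0.23 for the shortest to 0.18 for the longest; Gfpt1 lies above and Gne below the bar of its length group.

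The genes most like each entry enzyme over the 6 libraries are given as a description. Gfpt1 was higher and Gne lower in every double knockout than in every control, so their lists could hardly share genes. Among genes that averaged 5 FPKM or more, leaving out predicted genes and pseudogenes, those most like Gne were Mdh2, the mitochondrial malate dehydrogenase (Pearson r = 0.991), Psmg2, a chaperone of proteasome assembly (0.990), and Cox5a, a subunit of cytochrome c oxidase (0.989). Mdh2 was at 126, 104 and 155 FPKM in double knockouts and at 161, 185 and 178 FPKM in controls, so it was lowest in double knockout replicate 2, as Gne was. Those most like Gfpt1 were Xpr1, the phosphate exporter (0.995), Usp9x, a deubiquitinase (0.994), and Nfatc3, a transcription factor (0.994). Xpr1 was at 6.93, 6.23 and 5.83 FPKM in double knockouts and at 5.15, 4.77 and 3.38 FPKM in controls, in the same order of livers as Gfpt1. Xpr1, Usp9x and Nfatc3, like Gfpt1, belong to the group of longest transcripts, while Mdh2 and Psmg2 belong to the shortest, unlike Gne. These correlations rest on 6 points that share library and genotype, and 344 genes correlated with Gne above 0.9 and 189 with Gfpt1.

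In the 6 neighbouring lists, 0 genes passed the threshold. The groups did not overlap in 1 of 6 tested genes of hexosamine salvage and 1 of 9 that use UDP-GlcNAc. Downstream of CMP-sialic acid it was 1 of 7, among other nucleotide sugars 2 of 14 and in precursor supply 1 of 8. The share over all tested genes was 22.9%, so genes without overlap are named below as a description. Of the 7 genes of hexosamine salvage and its paralogs, 6 were tested, 4 with a positive and 2 with a negative fold change (median 0.07, against -0.01 over all tested genes). Gnpda1, a deaminase that returns glucosamine-6-phosphate to fructose-6-phosphate, measured 10.5, 9.50 and 10.5 FPKM in double knockouts and 8.18, 8.05 and 7.61 FPKM in controls. Its groups did not overlap (log2 difference 0.32, limma adjusted p = 0.321), as in no other gene of the list. Nagk, the kinase that salvages N-acetylglucosamine, overlapped at 9.13, 9.64 and 11.4 FPKM in double knockouts and 8.79, 9.36 and 13.2 FPKM in controls. Amdhd2, the deacetylase of its phosphate, overlapped at 11.1, 7.69 and 9.36 FPKM in double knockouts and 6.78, 9.10 and 12.0 FPKM in controls. Of the 9 genes that use UDP-GlcNAc, 6 were positive and 3 negative (median 0.07). Mgat1, which starts complex N-glycans, was at 27.3, 27.7 and 31.6 FPKM in double knockouts and at 23.9, 21.4 and 30.4 FPKM in controls. Ogt, which places O-GlcNAc, was at 9.10, 8.86 and 7.91 FPKM in double knockouts and at 7.88, 8.22 and 5.34 FPKM in controls. Both overlapped, as did Slc35a3, the Golgi carrier of UDP-GlcNAc, and Dpagt1, which starts the lipid-linked N-glycan precursor. Gnptab, which tags lysosomal enzymes for their receptor by transferring phosphorylated GlcNAc, was at 2.29, 2.41 and 2.45 FPKM in double knockouts and at 1.44, 1.18 and 1.48 FPKM in controls. Its groups did not overlap, and it had the lowest p of the list (log2 difference 0.52, SE 0.14, limma adjusted p = 0.197).

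Downstream of CMP-sialic acid, 5 of 7 genes were positive and 2 negative (median 0.17). Slc35a1, the transporter that carries CMP-sialic acid into the Golgi, was at 11.3, 9.40 and 8.31 FPKM in double knockouts and at 12.6, 12.6 and 12.1 FPKM in controls. It lay on the same side as Gne and Cmas without overlap (log2 difference -0.34, limma adjusted p = 0.346). Cmah, which hydroxylates CMP-sialic acid in mice, overlapped at 20.8, 22.7 and 19.5 FPKM in double knockouts and 22.3, 16.7 and 13.4 FPKM in controls. Neu1, the lysosomal sialidase, overlapped too, at 15.5, 13.7 and 17.6 FPKM in double knockouts and 14.5, 15.3 and 23.2 FPKM in controls. The 14 genes of other nucleotide sugars had 6 positive and 8 negative fold changes (median -0.10). Ugp2, the source of UDP-glucose and the most abundant of them, was at 289, 176 and 239 FPKM in double knockouts and at 186, 224 and 200 FPKM in controls. Ugdh, which oxidises UDP-glucose to UDP-glucuronate, was at 44.0, 56.7 and 42.6 FPKM in double knockouts and at 65.5, 78.1 and 70.4 FPKM in controls. Its groups did not overlap (log2 difference -0.58, SE 0.16, limma adjusted p = 0.2), and neither did those of Mpi (log2 difference -0.28, limma adjusted p = 0.44). The 8 genes of precursor supply had 4 positive and 4 negative (median -0.04), with Fbp1, which makes fructose-6-phosphate in gluconeogenesis, at 828, 742 and 1067 FPKM in double knockouts and at 579, 490 and 1183 FPKM in controls. Glul, which makes glutamine, was at 365.0, 295.3 and 314.6 FPKM in double knockouts and at 359.9, 366.2 and 410.3 FPKM in controls, with the groups overlapping. Gls2, the liver glutaminase that splits the glutamine Gfpt1 uses, was at 100.5, 77.0 and 149 FPKM in double knockouts and at 242, 242 and 159 FPKM in controls. Every double knockout was below every control (log2 difference -0.996, SE 0.28, limma adjusted p = 0.2).

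Of 10 genes of the unfolded protein response, which acts on protein folding in the endoplasmic reticulum, 2 were positive and 8 negative (median -0.38), with 0 past the threshold. Its part in the level of Gfpt1 was not tested. Xbp1 itself measured 57.2, 56.5 and 57.3 FPKM in double knockouts and 92.5, 79.0 and 58.3 FPKM in controls, and its gene-level value does not tell the spliced form from the unspliced one. Herpud1, which acts in the degradation of misfolded proteins, was at 247, 118 and 267 FPKM in double knockouts and at 254, 491 and 259 FPKM in controls, with the groups overlapping. Hspa5, the chaperone BiP, was at 268, 197 and 158 FPKM in double knockouts and at 273, 409 and 185 FPKM in controls, with the groups overlapping. In 4 of the 10 genes the groups did not overlap, as in 22.9% of all tested genes. Xbp1, Ddit3 and Sdf2l1 were on the lower side in double knockouts and Atf6 on the higher side.

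**Figure D5:**
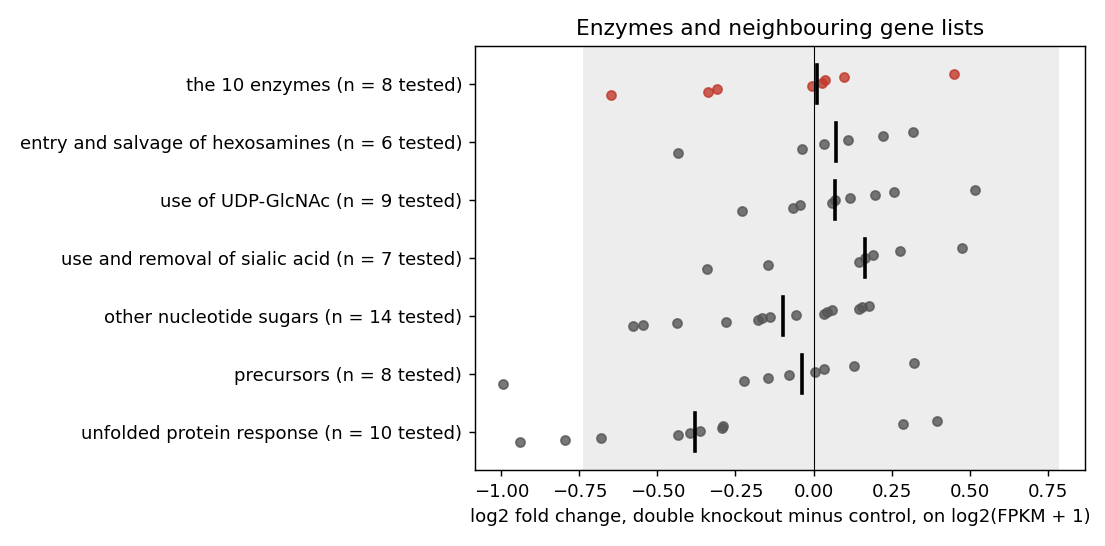
Log2 fold changes (double knockout minus control, log2(FPKM + 1) scale) of the tested enzymes in red and of 6 neighbouring gene lists in grey, one point for each tested gene, with the list's median as a vertical bar and the middle 95% of all tested genes as a band. The medians run from -0.38 for the unfolded protein response to 0.17 for the use and removal of sialic acid, and no point passed the threshold.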

How the data were processed

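Polyadenylated RNA from whole livers of 6 mice, 3 double knockouts and 3 controls, was sequenced, per the labels' protocols with a stranded Illumina kit and 1 µg of input. Sample titles gave the groups and replicate numbers, and column names gave the sample of each table column, with 0 columns of values unmatched. As tools, the submitters' processing notes list Cuffdiff 2.2.1, Picard 1.119, STAR 2.4.2a, Trimmomatic and bcl2fastq 2.17.1.14, in no stated order, and GRCm38 (mm10) as the build. Which annotation was used, and whether counting used strand, the sources used here do not say. What the authors deposited is FPKM for each library and a table comparing the groups. Per the file headers, that table holds each group's FPKM with the authors' p-value and q-value. Because FPKM divides by length and by library total, very abundant transcripts and losses by length shift other genes.

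The members and gene lists were chosen with earlier results of these data known. The title of the series names N-glycosylation, so the lists on its donors are not independent evidence. Restored from their identifiers were 27 symbols that had become dates. Testing covered the 11810 genes averaging 0.5 FPKM or more: limma 3.58.1 (R 4.3.3) was applied to log2(FPKM + 1), which understates low genes, with a trend of variance on mean level. Adjustment was by Benjamini-Hochberg over all of these genes, at 0.05, and fold changes are double knockout minus control. The procedure was tested on simulated data. No label says that replicates differ in more than the animal or library, so p-values measure the spread between these libraries. GENCODE M21 gave loci, lengths and GC content, and RefSeq the upstream sequences. Depth was read from values between 0.05 and 0.1 FPKM times kilobases, in genes over 1500 bases with 1 transcript, and low values carry large counting error. Named were the 10 enzymes, the deleted genes, paralogs and members from the 4 most abundant of each list. The 3 genes most correlated with Gne and with Gfpt1 were named too. Which of the 4 most abundant are shown was decided with their values known. So was the naming of Ogt, Gnptab, Slc35a1, Mpi, Ddit3, Sdf2l1, Atf6 and the hepatocyte and cholangiocyte markers. Alternatives were other pseudocounts, filters and scalings, library weights, no trend, a replicate block, each library left out and, added after seeing the data, removal of the length and GC trend.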

Additional observations from a re-analysis of the deposited data

How the results depend on the processing

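With 0 enzymes past the threshold (limma adjusted p under 0.05), all 18 alternatives also gave 0 in both directions. At an unadjusted p under 0.05 the tested enzymes numbered 1 to 3 over these settings. Of 144 values of the 8 tested enzymes, 129 kept the sign reported and 15 turned, none of them past the threshold. Gfpt1, Gne, Nans and Cmas kept their signs in each. For Gfpt1, Gne and Cmas, whose groups did not overlap, only the scalings and the trend removal could have turned the sign. Uap1 was 0.21 on values rescaled to a common sum, 0.0059 with median-of-ratios scaling, 0.035 with quantile normalization, and 0.058 with the length and GC trend removed, with or without the replicate block; leaving out single livers gave it -0.12 to 0.16, Gnpnat1 -0.29 to 0.49, Pgm3 -0.026 to 0.14 and Renbp -0.11 to 0.29. Library weights brought Renbp to -0.044. The median of the tested enzymes, 0.01, was 0.23 with the common sum, -0.088 with library weights and -0.19 to -0.024 when single livers were left out.

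The count of all genes past the threshold, 37, was 2 without a filter, 72 with the common sum (54 higher, 18 lower, against 20 and 17), 563 with library weights, 13 with the replicate block and the length and GC trend removed, and 2 to 210 when single livers were left out, the highest without control replicate 3. With the replicate block alone it was 50. Same-numbered livers deviated together at r = 0.22, -0.08 and 0.30 across genes, and differently numbered ones at -0.32 to 0.25. The labels name no pairs, and the numbers were not taken as pairs. The causes of these moves were not tested. Low values limit Nanp and Npl.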
